A study of Mus musculus with 2 samples.

Results

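The genes described here encode the nuclear subunits of the mitochondrial respiratory chain and of ATP synthase, taken as every gene of the deposited table whose symbol begins with Nduf, with Sdh followed by a to d, with Uqcr, with Atp5, or with Cox4 to Cox8. The rule took 91 of 17817 genes and used no measured value. Of these, 79 encode structural subunits: 36 of complex I, 4 of complex II, 8 of complex III, 16 of complex IV and 15 of complex V, the ATP synthase. The other 12 are 6 assembly factors, Ndufa4 and its paralog Ndufa4l2, factor B (Atp5s) and its paralog Atp5sl, the supercomplex factor Cox7a2l, and Cox4nb. Cox4nb carries a Cox symbol but encodes a part of the endoplasmic reticulum membrane complex.

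The respiratory chain passes electrons from NADH and succinate through complexes I to IV to oxygen and pumps protons across the inner mitochondrial membrane, and ATP synthase uses the returning protons to make ATP. Most subunits are encoded in the nucleus, while a few hydrophobic core subunits come from the mitochondrial genome, so the complexes are built from 2 sets of transcripts. Pluripotent stem cells rely strongly on glycolysis but keep a working respiratory chain. Genes of the mitochondrial genome itself were not analysed here.

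RNA of 2 libraries of mouse embryonic stem cells (mESCs) had been sequenced, 1 from cells with the genotype Setd2 KO and 1 from wild type cells, to ask how the transcriptome differs without Setd2. Setd2 encodes the enzyme that trimethylates lysine 36 of histone H3 over transcribed genes. Both lines were labelled 129SV/C57BL/6 at passages 10 to 12, had no specific treatment, and were moved from feeder cells to gelatin before collection. The sources used here do not say how Setd2 was disrupted or whether each line is a clone. Each group had 1 library, so no difference has a replicate check, no test was possible, and every value describes this pair of libraries. Levels are given as CPM, read equivalents scaled to a total of 1000000 over all genes, where a read equivalent is 76 sequenced bases. The libraries held 52041677 read equivalents in the knockout and 56129838 in the wild type, so that 1 CPM stood for 52.04 read equivalents in the knockout and 56.13 in the wild type. The intervals beside ratios are 95% counting intervals and cover counting error only, since PCR copies could not be told from separate molecules.

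Setd2 was at 174 CPM in the knockout and 452 CPM in the wild type, a ratio of 38.5% (interval 37.6 to 39.4%). Of 10 pluripotency markers in the table, 8 were below a log2 fold of 0, with a median of -0.17. Pou5f1 was at 97.6% and Sox2 at 91.0% of wild type, but Zfp42, a gene of chromosome 8, was at 68.1 CPM in the knockout and 283 CPM in the wild type (24.1%). Utf1 was at 58.3%, Esrrb at 77.1% and Nanog at 140% of wild type. The libraries also differed by chromosome. The 719 genes of chromosome 8 had a median log2 fold of -0.35, and the 5 genes of chromosome Y over 1 CPM had a median of 6.20. Of 10 fibroblast markers, which stand for feeder cells, 7 averaged 1 CPM or more, and 6 of these were below a log2 fold of 0. The other, Pdgfrb, was at 10.7 CPM in the knockout and 6.72 CPM in the wild type (159%). Lum was listed at 0 in the knockout and had 4 read equivalents in the wild type. All 10 summed to 71.4 CPM in the knockout and 94.3 CPM in the wild type. The part of these differences in the values below was not tested, except where chromosome 8 is left out.

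The respiratory chain and ATP synthase genes stood close together in the 2 libraries. Of the 91 genes, 86 averaged 1 CPM or more over both libraries and are counted below, while 5 (Ndufs5, Cox4i2, Cox6a2, Cox7b2 and Cox8c) did not. The median log2 fold of the 86, knockout over wild type, was 0.05, with quartiles of -0.08 and 0.22. The 13523 genes of the whole table over the same floor had a median of 0.05 and wider quartiles, -0.20 and 0.28. None of the 86 was 2-fold apart, a count of 0 higher and 0 lower in the knockout. Of all genes, 1.76% were at least 2-fold higher, 2.11% at least 2-fold lower and 3.87% apart either way. At 1.5-fold, 2 genes were higher, Cox7a2l and Atp5s, and 1 was lower, Atp5k, where 7.42% of all genes were higher and 6.77% lower. Either way, 14.2% of all genes were 1.5-fold apart. A fold above 0 was seen for 51 of the 86 genes, against 56.4% of all genes. The sign of the median depends on the scaling: it was 0.013 when the libraries were scaled by their upper quartile and -0.0080 when scaled by a trimmed mean of log ratios.

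The spread stayed narrow among abundant genes. At a mean of 5 CPM or more, 3 of 76 respiratory genes, or 3.95%, were 1.5-fold apart, where 11.3% of 10852 genes in the table were. Summed over all 91 genes, transcripts of the respiratory chain and ATP synthase took 0.646% of the knockout library (6461 CPM) and 0.611% of the wild-type library (6113 CPM). The 5 subunits of F1, the catalytic head of ATP synthase with its central stalk, gave 3158 CPM of it in the knockout and 2910 CPM in the wild type. Atp5b was at 1623 CPM and Atp5a1 at 1374 CPM in the knockout, against 1564 and 1194 CPM in the wild type.

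**Figure D1:**
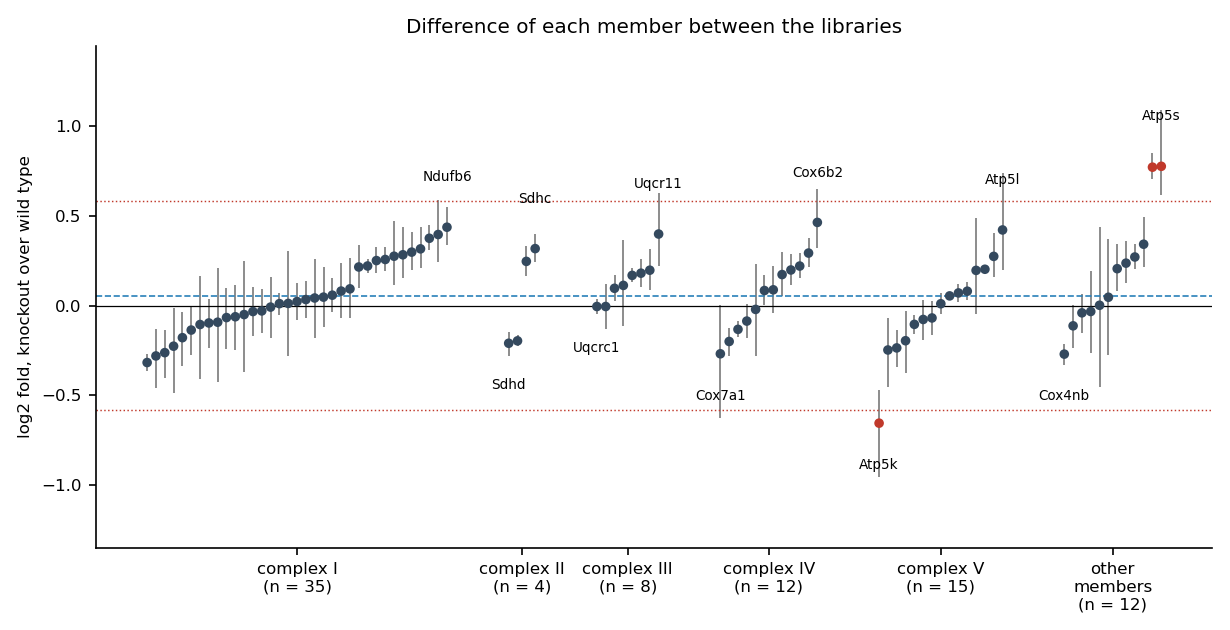
Log2 fold, knockout over wild type, of the 86 respiratory chain and ATP synthase genes that averaged 1 CPM or more, ordered within each complex; bars are 95% counting intervals of the ratio, the dashed blue line is the median of all genes and the dotted lines mark 1.5-fold. The red points past the dotted lines are Cox7a2l, Atp5s and Atp5k, and each labelled point is the lowest or the highest of its group.

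Complex I, the NADH dehydrogenase, had a median log2 fold of 0.02 over 35 subunits, 20 above 0 and 15 below, and 0 of them 1.5-fold apart. Under upper-quartile scaling that median was -0.01, and those of complexes II and V also crossed 0, to -0.01 and -0.03. The medians of these 3 complexes were below 0 under the other rescalings too, down to -0.05. Its 7 nuclear core subunits, which carry the flavin, the iron-sulphur clusters and the quinone site, did not move one way, with a median of 0.01. Ndufs1, the large iron-sulphur subunit, was at 231 CPM in the knockout and 198 CPM in the wild type, a log2 fold of 0.22. Ndufv1, which binds NADH and flavin, was at 80.7 CPM in the knockout and 80.1 CPM in the wild type.

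Of the remaining core subunits, Ndufv2, an iron-sulphur subunit beside Ndufv1, was at 59.0 CPM in the knockout and 49.5 CPM in the wild type (log2 fold 0.25). Ndufs8, another iron-sulphur subunit, was at 12.6 CPM in the knockout and 14.3 CPM in the wild type (-0.18). Ndufs7, which holds the last cluster before quinone, was at 10.2 CPM in the knockout and 10.7 CPM in the wild type. Ndufs3, a subunit of the peripheral arm, was at 6.41 CPM in the knockout and 6.21 CPM in the wild type. The core subunits were thus spread over both sides of 0, and their levels ran from 6.41 to 231 CPM within the knockout library.

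The accessory subunits, which surround the core and stabilise it, had a median of 0.03 over 28 genes, 16 above 0 and 12 below. The highest was Ndufb6, a small membrane-arm subunit, at 31.2 CPM in the knockout and 22.9 CPM in the wild type, 1.36-fold (interval 1.26 to 1.47). Ndufa3 followed at 11.9 CPM in the knockout and 8.92 CPM in the wild type (0.40). Ndufa10 was at 69.5 CPM in the knockout and 53.5 CPM in the wild type (0.38). Both were chosen after their values were seen. The accessory subunits with the lowest folds were Ndufb7 (-0.28) and Ndufa13 (-0.26), which both lie on chromosome 8. Ndufs5 was below the floor, at 0.232 CPM in the knockout and 0.769 CPM in the wild type, and is taken up with its copy below.

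Complex II, succinate dehydrogenase, has no subunit encoded in mitochondria, and its 4 genes split evenly. The catalytic flavoprotein Sdha was at 303 CPM in the knockout and 347 CPM in the wild type, 87.2% of wild type (interval 85.4 to 89.1%). The membrane anchor Sdhd was at 62.9 CPM in the knockout and 72.9 CPM in the wild type, 86.3% (82.4 to 90.4%). The iron-sulphur subunit Sdhb was at 49.3 CPM in the knockout and 41.5 CPM in the wild type, 1.19-fold (1.12 to 1.26). The other anchor, Sdhc, was at 55.6 CPM in the knockout and 44.5 CPM in the wild type, 1.25-fold (1.18 to 1.32). The intervals of the lower pair and the higher pair do not overlap, but all 4 folds are smaller than 1.5 and no replicate bears on them.

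Complex III, the cytochrome bc1 complex, had a median log2 fold of 0.14, with 6 of 8 subunits above 0. The core subunits Uqcrc1 and Uqcrc2 were at 173 and 199 CPM in the knockout and at 173 and 177 CPM in the wild type. The Rieske iron-sulphur protein Uqcrfs1 was at 56.3 CPM in the knockout and 52.7 CPM in the wild type. The highest fold was that of the small subunit Uqcr11, at 8.51 CPM in the knockout and 6.34 CPM in the wild type, 1.34-fold (interval 1.16 to 1.55). Of the windows of Uqcr11 described below, 65% were found elsewhere in the genome, so its fold depends on how reads were assigned. Summed with its copy Gm16418, Uqcr11 was at 12.1 CPM in the knockout and 9.34 CPM in the wild type. The log2 fold of the sum was 0.35, beside 0.40 for the gene alone. The lowest fold of the complex was just below 0 (Uqcrc1, 99.6% of the wild-type level). Cyc1, the cytochrome c1 subunit, falls outside the symbol rule and went the other way, at 77.6 CPM in the knockout and 98.4 CPM in the wild type (log2 fold -0.34).

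Complex IV, cytochrome c oxidase, had a median of 0.09 over the 12 subunits above the floor, 7 above 0 and 5 below, with 0 of them 1.5-fold apart. The ubiquitous isoform carried most reads of each isoform family, from 78.4% (Cox6b1) to 100% (Cox6a1) in the knockout and from 80.5% to 100% in the wild type for the same genes. Cox4i1 was at 146 CPM in the knockout and 160 CPM in the wild type, and Cox4i2, known from lung and low oxygen, at 0.255 CPM in the knockout and 0.890 CPM in the wild type. Cox4i2 made up 0.171% of the Cox4 reads in the knockout (exact interval 0.0910 to 0.292%) and 0.553% in the wild type (0.411 to 0.729%). Cox6a1 was at 41.7 CPM in the knockout and 36.3 CPM in the wild type. Its muscle partner Cox6a2 was listed at 0 in both, where a count of 0 allows up to 0.0576 CPM in the knockout and 0.0534 CPM in the wild type.

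The isoform known from testis that was clearly present was Cox6b2. It was at 13.5 CPM in the knockout and 9.67 CPM in the wild type, 1.40-fold (interval 1.25 to 1.57), the highest fold of the complex. Cox6b2 made up 21.6% of Cox6b reads in the knockout (20.2 to 23.1%) and 19.5% in the wild type (18.0 to 21.0%). Cox6b1 was also higher in the knockout, at 49.0 against 39.9 CPM in the wild type. Cox7a1, the heart and muscle isoform, had the lowest fold of the complex, at 2.86 CPM in the knockout and 3.55 CPM in the wild type, 80.8% (64.9 to 100.4%). Its partner Cox7a2 was at 44.6 CPM in the knockout and 51.3 CPM in the wild type. Cox7a1 thus made up 6.03% of the reads of this pair in the knockout and 6.46% in the wild type. By level per kb of transcript, the share of Cox7a1 was 11.7% in the knockout and 12.5% in the wild type.

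The other testis isoforms were near the limit of counting. Cox7b2 was at 0.637 CPM in the knockout and 0.581 CPM in the wild type. Cox8c was at 0.187 CPM in the knockout and 0.0474 CPM in the wild type, about 10 and 3 read equivalents, and the interval of the ratio, 0.926 to 20.3, includes 1. Cox8a, the ubiquitous partner, was at 43.8 CPM in the knockout and 41.3 CPM in the wild type. Of 5 male germ cell markers in the table, 1 averaged 1 CPM or more. This was Ddx4, at 53.2 CPM in the knockout and 52.9 CPM in the wild type. Ldhc was at 0.805 CPM in the knockout and 0.0713 CPM in the wild type, about 42 and 4 read equivalents, an 11.3-fold ratio (interval 4.11 to 43.5). The others were under 0.2 CPM in both, and the part of germ cell transcripts in the Cox6b2 value was not tested.

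In the ATP synthase 4 of the 5 subunits of F1, the catalytic head with the central stalk, were above a log2 fold of 0. Of the 10 peripheral stalk and membrane subunits, 4 were. The median folds were 0.08 for F1 and -0.09 for the peripheral stalk and membrane, beside 0.05 over all genes. Their difference was not tested. The catalytic Atp5b was 1.04-fold (interval 1.03 to 1.05) and its partner Atp5a1 1.15-fold (1.14 to 1.16) the wild-type level. The central stalk subunit Atp5c1 was at 115 CPM in the knockout and 109 CPM in the wild type. Atp5d, the delta subunit, was at 23.6 CPM in the knockout and 24.9 CPM in the wild type, and Atp5e, the epsilon subunit, at 21.7 CPM in the knockout and 17.8 CPM in the wild type. With 1 F1 gene below 0 and 4 peripheral stalk and membrane genes above 0, the ranges of the 2 groups overlap. Under the trimmed mean of log ratios the F1 median was 0.02, and it stayed above 0 under each scaling tried.

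Atp5k, which encodes the membrane subunit e needed for ATP synthase dimers, had the lowest fold of all, at 4.26 CPM in the knockout and 7.0 CPM in the wild type, 60.9% of wild type (interval 51.4 to 72.0%). Atp5l, which encodes subunit g, its partner in the dimer interface, had the highest fold of the complex, at 5.06 CPM in the knockout and 3.65 CPM in the wild type, 1.38-fold (1.15 to 1.67). Both have copies in the genome with more reads than the gene itself, described below. The c ring is encoded by Atp5g1, Atp5g2 and Atp5g3, whose mature proteins are identical. Atp5g3 gave 87.2% of their reads in the knockout (86.4 to 88.0%) and 84.7% in the wild type (83.8 to 85.5%), from 118 CPM in the knockout and 113 CPM in the wild type. Atp5g1 and Atp5g2 were each lower in the knockout, at 9.74 and 7.66 CPM against 11.2 and 9.19 CPM in the wild type. Of the windows described below, 60% of Atp5g1, 100% of Atp5g2 and 0% of Atp5g3 were found elsewhere in the genome. The shares and these 2 differences thus depend on how reads were assigned. Summed with its copy Gm10039, Atp5g1 was at 39.3 CPM in the knockout and 40.8 CPM in the wild type, 96.2% (90.6 to 102.2%).

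The 2 genes 1.5-fold higher in the knockout are not structural subunits. Cox7a2l (chromosome 17, 83901257 to 83913673, mm9) encodes the factor that joins complexes III and IV into supercomplexes. It was at 74.9 CPM in the knockout and 43.7 CPM in the wild type, 1.72-fold (interval 1.63 to 1.80), a log2 fold of 0.77. Atp5s (chromosome 12, 70825949 to 70845645) encodes coupling factor B. It was at 7.60 CPM in the knockout and 4.23 CPM in the wild type, 1.80-fold (1.53 to 2.13), a log2 fold of 0.78. Its paralog Atp5sl was at 20.2 CPM in the knockout and 21.8 CPM in the wild type. Both higher genes stayed above 1.5-fold under every scaling and pseudocount tried.

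The 6 assembly factors among these genes had a median log2 fold of 0.13. The complex I factor Ndufaf2 was the highest of them, at 18.2 CPM in the knockout and 14.3 CPM in the wild type (0.34). Ndufaf4, Ndufaf1 and Ndufaf3 were at 24.7, 19.2 and 3.05 CPM in the knockout and at 20.9, 16.6 and 2.93 CPM in the wild type. The complex II factors Sdhaf1 and Sdhaf2 were at 5.76 and 25.1 CPM in the knockout and at 5.91 and 25.8 CPM in the wild type. Ndufa4, which is now assigned to complex IV, was at 69.2 CPM in the knockout and 57.3 CPM in the wild type (0.27). Its paralog Ndufa4l2, known as a target of the hypoxia response, was at 1.62 CPM in both.

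Subunits of 1 complex are held in fixed proportion in the assembled enzyme, but their transcript levels per length were far apart. Levels per length are CPM per kb of the annotated transcript. In complex I Ndufab1, the acyl carrier protein, was at 2.10 in the knockout and 2.26 in the wild type, and Ndufs1 at 86.8 in the knockout and 74.5 in the wild type. In complex II Sdhc was at 17.5 in the knockout and 14.03 in the wild type, and Sdha at 104 in the knockout and 120 in the wild type. In complex III Uqcrb was at 10.4 in the knockout and 9.56 in the wild type, and Uqcrc1 at 104 in the knockout and 105 in the wild type. In complex IV Cox5b stood at 8.40 in the knockout and 8.54 in the wild type, and Cox4i1 at 215 in the knockout and 236 in the wild type. The widest range was in ATP synthase, from 7.52 for Atp5h to 847 for Atp5b in the knockout and from 6.46 to 816 in the wild type, which is 126-fold in the wild type. As listed, the ranges within a complex were thus far wider than the difference of any subunit between the libraries. For the low genes Uqcrb, Cox5b and Atp5h, 90%, 85% and 75% of the windows described below were found elsewhere in the genome. Their levels, and with them the ranges of complexes III, IV and V, depend on how such reads were assigned.

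**Figure D2:**
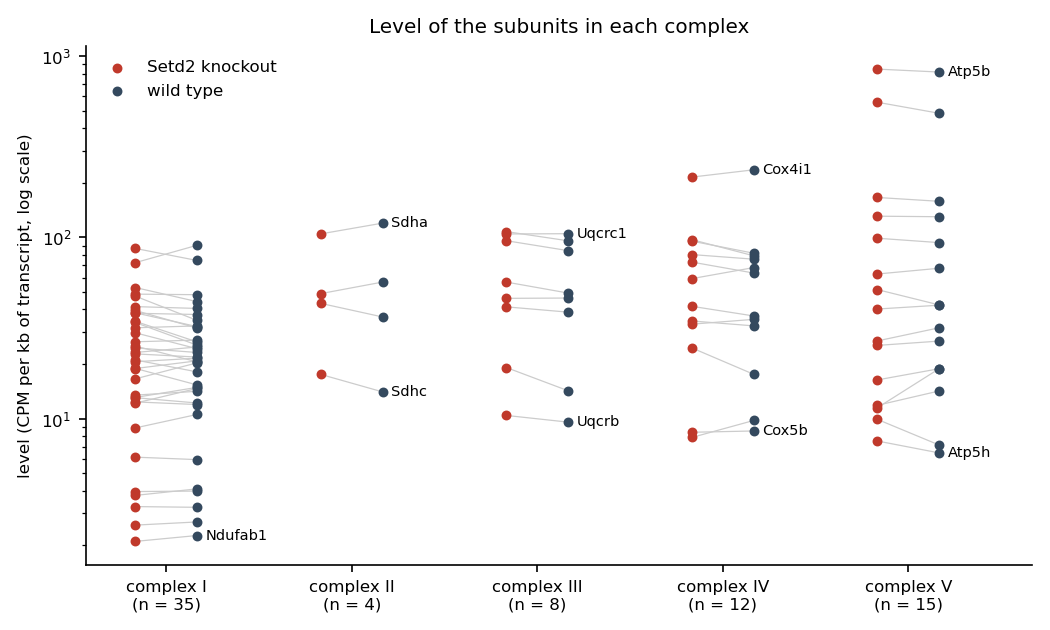
Level per length (CPM per kb of transcript, log scale) of the subunits over the floor in each complex, in the Setd2 knockout (left, red) and the wild type (right, dark); lines join the same gene, and each labelled gene has the lowest or the highest mean of its complex. Most lines run nearly level, and levels extend from 2.10 to 847 in the knockout and from 2.26 to 816 in the wild type.

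Many of the low subunits have near-identical copies elsewhere in the genome. For each gene, 20 windows of 76 bases, the read unit, were taken along the transcript and sought in the whole genome with at most 2 mismatches. Of the 86 genes, 37, or 43.0%, had at least 1 window that was found elsewhere, where 20.6% of 12787 genes did. For 11, or 12.8%, at least 50% of windows were found elsewhere, where 6.19% of all genes did. Among the 74 structural subunits over the floor, the 10 with 50 to 100% of windows elsewhere had a median level of 11.1 CPM per kb in the knockout and 10.8 in the wild type. The 39 with none had medians of 38.3 CPM per kb in the knockout and 32.2 in the wild type. The 25 between them had 33.2 in the knockout and 35.3 in the wild type.

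Across these 74 subunits the rank correlation of level per length with the share of windows elsewhere was -0.38 in the knockout and -0.35 in the wild type (Spearman's rho, a description, since the subunits share a library). Over 12787 genes of the table it was 0.23 in each library. The sources used here do not say how reads with several possible places were counted, so the level of a gene with many such windows is uncertain.

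**Figure D3:**
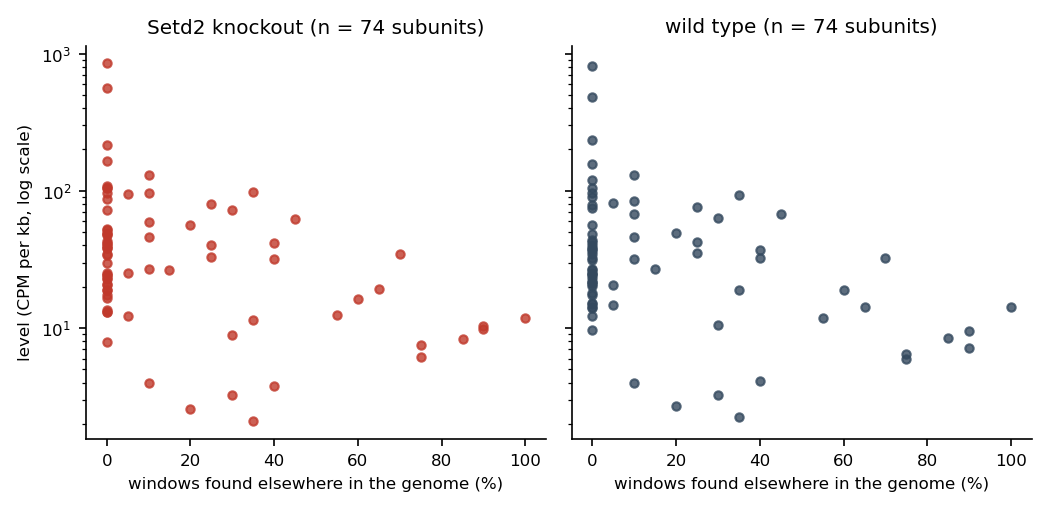
Level per length (CPM per kb, log scale) of 74 subunits against the percentage of their 20 windows found elsewhere in the genome, in the Setd2 knockout (left) and the wild type (right). Subunits with 50% or more windows elsewhere lie between 6.13 and 34.6 in the knockout and between 5.94 and 32.5 in the wild type.

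In all, the windows of 38 genes matched 74 other places, 42 of which carry an annotated pseudogene. For 20 of the genes the table has rows for the copies themselves, 22 rows in all. For 9 of them the copies held more reads than the gene in both libraries: Atp5g1, Atp5h, Atp5k, Atp5l, Cox5b, Cox6c, Ndufs3, Ndufs5 and Uqcrb. Atp5h, subunit d of the stalk, was at 4.70 CPM in the knockout and 4.04 CPM in the wild type, while its copy Gm10250 was at 60.6 CPM in the knockout and 51.6 CPM in the wild type. Atp5l had a copy, Gm10221, at 48.5 CPM in the knockout and 44.4 CPM in the wild type. The copy of Cox5b, Gm11273, was at 34.4 CPM in the knockout and 30.6 CPM in the wild type. Cox5b itself was at 4.76 CPM in the knockout and 4.83 CPM in the wild type.

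Stretches of coding sequence from 4 of these genes are shown beside the matching stretch of the copy, to show how near the 2 sequences are. They are read 5′ to 3′ along the gene's sense strand from the mm9 assembly, and capitals mark the bases that differ. Positions are counted from 1 at the 5′ end of the stretch, with the gene's base first.
Ndufs5: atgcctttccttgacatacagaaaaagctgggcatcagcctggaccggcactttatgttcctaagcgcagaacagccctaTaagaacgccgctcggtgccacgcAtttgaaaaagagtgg
BC002163: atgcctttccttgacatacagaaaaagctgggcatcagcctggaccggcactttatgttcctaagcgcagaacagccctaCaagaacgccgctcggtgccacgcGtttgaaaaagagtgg
Cox7a2l: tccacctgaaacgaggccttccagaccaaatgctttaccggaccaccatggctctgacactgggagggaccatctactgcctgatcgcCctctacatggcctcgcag
Gm6969: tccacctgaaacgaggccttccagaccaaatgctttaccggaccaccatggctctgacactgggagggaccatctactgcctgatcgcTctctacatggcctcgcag
Cox5b: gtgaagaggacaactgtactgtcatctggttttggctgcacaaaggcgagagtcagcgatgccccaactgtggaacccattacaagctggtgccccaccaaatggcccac
Gm11273: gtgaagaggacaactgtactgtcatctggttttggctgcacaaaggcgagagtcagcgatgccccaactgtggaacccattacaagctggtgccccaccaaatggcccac
Atp5k: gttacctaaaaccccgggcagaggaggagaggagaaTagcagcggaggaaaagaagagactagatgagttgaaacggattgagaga
Gm14337: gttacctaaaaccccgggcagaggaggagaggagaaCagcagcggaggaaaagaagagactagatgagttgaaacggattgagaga

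Ndufs5, an accessory subunit of complex I, is shown from chr4:123393203-123393322 (minus strand) beside its copy at chr16:42955744-42955863. The 120 bases differ at 2 positions, T81C and A105G. The row of the copy held far more reads than that of the gene. Ndufs5 was at 0.232 CPM in the knockout and 0.769 CPM in the wild type. BC002163 was at 16.6 CPM in the knockout and 12.5 CPM in the wild type. For Ndufs5, 19 of 20 windows, or 95%, matched the copy, which lies within the span of Zbtb20. Alone, Ndufs5 was at 30.1% of wild type (interval 14.4 to 58.1%). Summed with its copy it was 1.27-fold (1.15 to 1.40), so the gene alone and the sum differ in direction. Whether the reads of BC002163 came from Ndufs5 was not tested.

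Cox7a2l is shown from chr17:83901958-83902064 (minus strand) beside Gm6969 at chr12:25323549-25323655, with 1 difference in 107 bases, C89T. Gm6969 was at 34.8 CPM in the knockout and 18.8 CPM in the wild type, 1.85-fold (interval 1.71 to 1.99), close to the 1.72-fold of the gene. Summed, they were at 109.7 CPM in the knockout and 62.5 CPM in the wild type, 1.76-fold (1.68 to 1.83). The higher level in the knockout was listed in both rows, and so in their sum. These values are not separate observations of Cox7a2l. Of its windows, 65% were found elsewhere in the genome, and Gm6969 matched 13 windows. Reads of the same transcripts may be in both rows, and from which of them the reads came was not tested.

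Cox5b, the zinc-binding subunit of complex IV, is shown from chr1:36750042-36750151 (plus strand), and its 110 bases are identical in the copy at chr13:21592901-21593010. Atp5k is shown from chr5:108862763-108862848 (minus strand) beside Gm14337 at chr2:173810016-173810101, with T37C as the difference in 86 bases. Gm14337 was at 9.83 CPM in the knockout and 9.01 CPM in the wild type. Summed with that copy, Atp5k was at 14.1 CPM in the knockout and 16.01 CPM in the wild type, a log2 fold of -0.18 instead of -0.66. The sum leaves no respiratory gene 1.5-fold lower. However, only 35% of the 20 windows of Atp5k were found elsewhere. Gm14337 matched 2 windows, and a place within Itfg1, which the sum leaves out, matched 4. Whether the reads of Gm14337 came from Atp5k was not tested.

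The sums moved other genes too. Atp5f1, subunit b of the stalk, was at 101 CPM in the knockout and 108 CPM in the wild type, a log2 fold of -0.11, and its copy Gm12231 was at 112 CPM in the knockout and 87.2 CPM in the wild type. Summed they were at 213 CPM in the knockout and 195 CPM in the wild type, a log2 fold of 0.12. Atp5l, summed with Gm10221, had a log2 fold of 0.15 in place of 0.42. With every gene summed with its copies, the median of the respiratory genes was 0.08, over 87 genes since Ndufs5 then passed the floor.

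**Figure D4:**
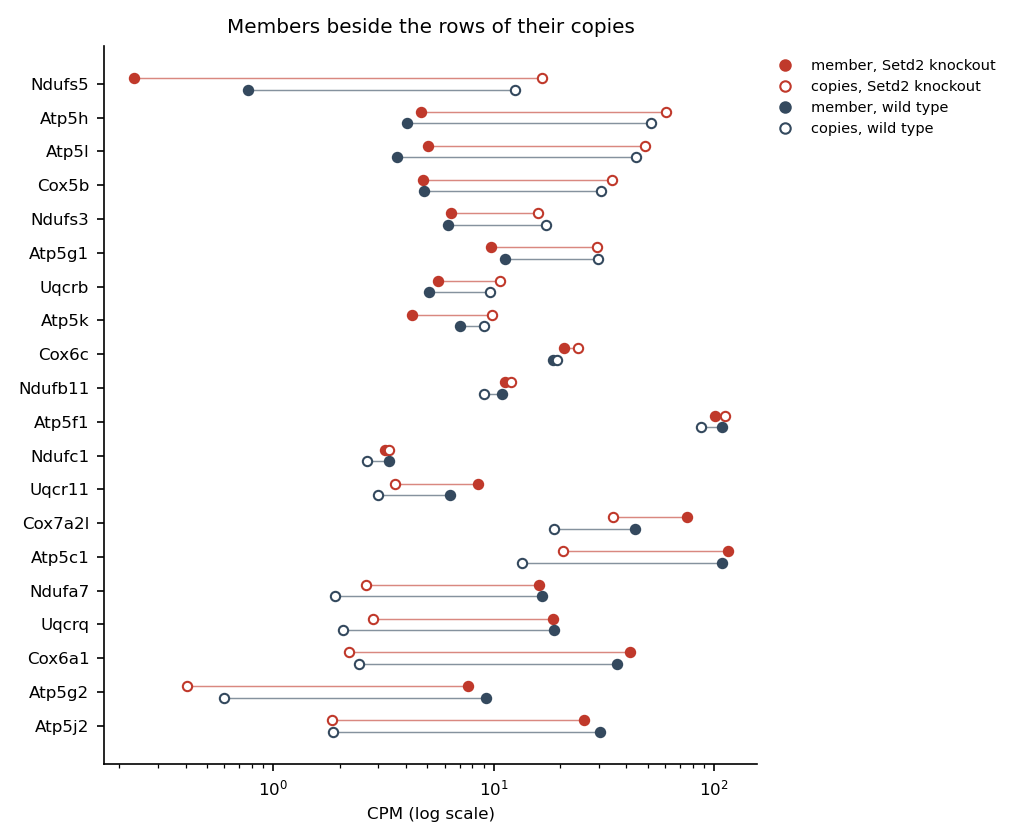
CPM (log scale) of the 20 genes with copy rows in the table (filled) and of the sum of their copies (open), in the Setd2 knockout (upper line of each gene, red) and the wild type (lower line, dark). For the genes at the top, from Ndufs5 to Cox6c, the open point lies to the right of the filled one in both libraries; in the knockout Ndufs5 is at 0.232 CPM and its copy at 16.6 CPM, and in the wild type at 0.769 and 12.5 CPM.

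Chromosome 8 carries 4 of these genes, and all 4 were lower in the knockout. Ndufb7, an intermembrane-space subunit of complex I, was at 10.3 CPM in the knockout and 12.6 CPM in the wild type (log2 fold -0.28). Cox4nb was at 75.7 CPM in the knockout and 91.4 CPM in the wild type (-0.27). Ndufa13, also known as the cell death factor GRIM-19, was at 15.1 CPM in the knockout and 18.2 CPM in the wild type (-0.26), and Cox4i1 had a fold of -0.13. All 4 lie above the chromosome's own median of -0.35, where 82.2% of 719 genes were below 0. Without chromosome 8 the median of the other 82 genes was 0.06, with 51 above 0.

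**Figure D5:**
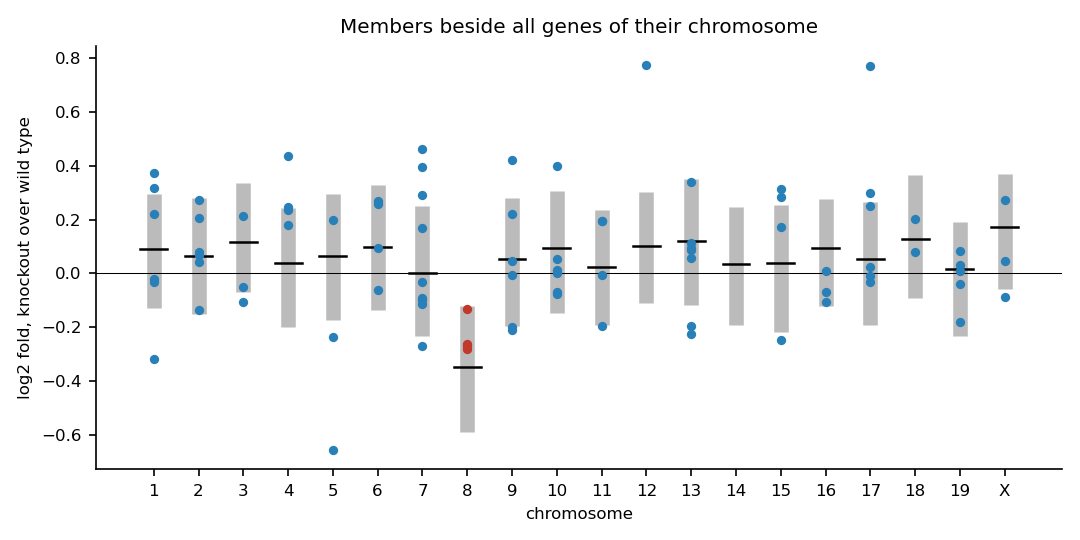
Log2 fold, knockout over wild type, of the respiratory chain and ATP synthase genes over the floor (points) on each chromosome, with the median (black line) and the quartiles (grey bar) of all genes there. On chromosome 8 (red points) the 4 genes lie between -0.28 and -0.13 beside a chromosome median of -0.35.

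Promoters of respiratory genes are known for short words bound by NRF1, by ETS factors such as GABP, and by YY1. RefSeq promoter windows on GRCm38.p6, from 250 bases before to 50 after the start, matched 75 of the 91 genes by gene number, in 81 windows. The NRF1 word CGCATGCG was in 12.3% of these windows on either strand, where 1.87% of all 32851 windows held it. The ETS word CCGGAAG was in 23.5% against 8.86%, and the YY1 word AAGATGGC in 14.8% against 2.75%. The ETS and YY1 words can overlap in the letters AAG. At least 1 of the words was in 43.2% of the windows of respiratory genes and 12.6% of all windows. A match is a description of letters, not a bound site.

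The words differed in the folds of the genes that held them, and the differences were not tested. The 19 genes over the floor with the ETS word had a median log2 fold of 0.18 and ran from -0.66 to 0.44, and the 54 without it had a median of 0.02. For YY1 the medians were -0.05 with the word and 0.05 without, and for NRF1 0.00 with the word and 0.05 without. The 34 genes over the floor with any of them had a median log2 fold of 0.02 and ran from -0.66 to 0.44, and the 39 without had a median of 0.05 and ran from -0.27 to 0.78. The 250 bases before the start are shown for the highest subunits of complexes I and III, as examples of the ETS word, which is in capitals on either strand. The window of Uqcr11 also held the NRF1 word, which is not whole within the bases shown. Atp5k, which had the lowest fold, held the ETS word too. Ndufb6 is from chr4:40279422-40279671 and Uqcr11 from chr10:80406822-80407071, both on the minus strand of GRCm38.p6 and read 5′ to 3′ toward the gene.
Ndufb6: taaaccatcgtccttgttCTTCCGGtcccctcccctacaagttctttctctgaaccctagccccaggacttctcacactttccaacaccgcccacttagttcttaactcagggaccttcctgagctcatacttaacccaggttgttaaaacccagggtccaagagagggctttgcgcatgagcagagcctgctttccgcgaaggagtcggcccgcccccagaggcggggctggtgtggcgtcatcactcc
Uqcr11: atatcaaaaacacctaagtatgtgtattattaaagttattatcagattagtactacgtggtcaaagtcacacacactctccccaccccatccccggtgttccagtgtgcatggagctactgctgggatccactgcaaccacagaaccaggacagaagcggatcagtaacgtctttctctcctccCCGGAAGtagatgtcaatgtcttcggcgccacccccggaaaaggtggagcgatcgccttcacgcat

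Exons of some genes overlap those of a neighbour, and the sources used here do not say whether the counting used strand. Such overlaps were found for 19 of the 91 genes. The longest with a measured partner was between Atp5j, coupling factor 6, and Gabpa, the DNA-binding subunit of GABP, which share 397 exon bases on opposite strands. Atp5j was at 88.9 CPM in the knockout and 88.3 CPM in the wild type, and Gabpa at 318 CPM in the knockout and 258 CPM in the wild type. Of the 18 overlapping genes over the floor, 12 were above 0, with a median of 0.04 and 0 of them 1.5-fold apart.

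Related pathways outside the symbol rule had medians a little above 0, under each scaling tried. Over all genes the median was 0.05, with 56.4% above 0. Of all genes, 7.42% were at least 1.5-fold higher, 6.77% lower and 14.2% apart either way. No difference of a list from all genes was tested. The 24 other assembly factors had a median log2 fold of 0.20, with 18 above 0, 1 at least 1.5-fold higher and 0 lower. That gene was Ttc19, which acts on complex III, at 35.6 CPM in the knockout and 21.9 CPM in the wild type (0.69). Sco1, which delivers copper to complex IV, was at 38.6 CPM in the knockout and 25.9 CPM in the wild type (0.57). The 14 enzymes of the tricarboxylic acid cycle also had a median of 0.20, with 12 above 0 and 0 of them 1.5-fold apart. Its largest folds were those of Fh1, fumarate hydratase, at 110 CPM in the knockout and 80.1 CPM in the wild type (0.45), and the succinate-CoA ligase gene Suclg2, at 43.5 CPM in the knockout and 32.3 CPM in the wild type (0.42).

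The 17 genes listed for mobile electron carriers and coenzyme Q synthesis had a median of 0.18, with 1 gene 1.5-fold higher and 1 lower. This list includes Cyc1, which is a subunit of complex III and not a mobile carrier. Cyct, the cytochrome c isoform known from testis, was at 12.0 CPM in the knockout and 6.48 CPM in the wild type (0.84), and Coq9, a lipid-binding factor of coenzyme Q synthesis on chromosome 8, at 22.1 CPM in the knockout and 34.9 CPM in the wild type (-0.65). Regulators of mitochondrial biogenesis had a median of 0.08 over 15 genes, beside 0.05 over all genes. Of the 15, 0 were at least 1.5-fold higher and 2 lower. These were the coactivator Ppargc1b, at 6.81 CPM in the knockout and 13.7 CPM in the wild type (-0.96), and its partner receptor Esrra, at 7.34 CPM in the knockout and 11.9 CPM in the wild type (-0.67). Nrf1 was at 60.3 CPM in the knockout and 65.7 CPM in the wild type, and Tfam, which packages mitochondrial DNA, at 132 CPM in the knockout and 111 CPM in the wild type, both chosen after their values were seen. Ppargc1a had 0.0566 CPM in the knockout and 0.0534 CPM in the wild type, near the limit of a count of 0.

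Other large protein machines of the cell were about as close. Mitochondrial ribosomal protein genes had a median log2 fold of 0.01 over 77 genes with 1 of them 1.5-fold apart, and proteasome genes 0.02 over 48 with 2 apart. The mitochondrial carriers of the Slc25a family were more spread, with a median of -0.09 over 37 genes and 8 of them 1.5-fold apart. Of all genes, 14.2% were 1.5-fold apart. These values are set beside those of the respiratory genes as a description, and no difference between the groups was tested.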

How the data were processed

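RNA-seq of 1 Setd2 knockout and 1 wild-type library of mESCs was taken from the deposited table. TopHat 1.0.13, CASAVA 1.6.0 and the mm9 build are named, without a role, per the submitters' processing notes. Per the file headers the deposited columns are RPKM, but the deposited log2 values behave as log2(x + 1) of x sequenced bases in units of 76: of values of x under 200, 85.7% in the knockout and 85.9% in the wild type were whole multiples of 1 base within 0.05. The analysis foresaw other units, and no count test was used, since each group has 1 library. The values were turned back, scaled to a total of 1000000 (CPM) over each library, and compared as log2((knockout + 0.5)/(wild type + 0.5)) on CPM, which understates folds of low genes. Where several rows shared a symbol, the most abundant was kept. Genes that averaged 1 CPM or more were counted at 2-fold and 1.5-fold. Intervals are exact binomial 95% intervals.

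Members and lists were chosen with earlier results of these data known. Named genes are Setd2, members 1.5-fold apart at 5 CPM or more, the extremes of each complex in fold and level, members on chromosome 8, core and isoform families, members below the floor, non-subunits, and the 2 largest folds of each list. Other genes named were chosen after their values were seen. Copy rows are table rows of up to 5000 bases, or predicted genes of up to 20000 bases, at a matching place, a rule set after the data were seen. Transcripts came from GENCODE on NCBIM37, which is mm9, and the shortest transcript with the longest coding sequence was used. Windows were aligned with minimap2 2.31. Stretches are the best ungapped match, scored 1 for a match and -3 for a mismatch. The procedure was tested on simulated data. Sco2, Adck3 and Cox8b were not analysed here. The values of 1 gene that the naming rule covers are not reported here.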

Additional observations from a re-analysis of the deposited data

How the results depend on the processing

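No paired analysis was possible because each genotype had 1 library, and no library could be left out for the same reason. The alternatives were pseudocounts of 0.1 and 1 CPM, a floor of 5 CPM or none, 3 rescalings, summed rows of a symbol, and leaving out chromosome 8, genes with 50% or more shared windows, or all but structural subunits. Summing genes with their copies was added after the data were seen. Of 60 counts recomputed, 56 stayed within 1.5 times. Without a floor, 3 genes were 1.5-fold lower. Without genes of 50% or more shared windows 1 gene was 1.5-fold higher, and among structural subunits 0. With copies summed 0 genes were 1.5-fold lower. Of 107 medians, 106 stayed within the interval of the median, which is taken over the genes of a list and not over replicates. For complex II, with 4 genes, that interval is the whole range from -0.21 to 0.32, so its median could hardly leave it. The 106 thus say little about how stable the medians are. The median of the respiratory genes was -0.0080 under the trimmed mean of log ratios. Setd2 had a log2 fold of -1.37, and of -1.43 at a median log2 ratio of 0, -1.43 under the trimmed mean and -1.41 under the upper quartile. Ndufs5, at -0.79 alone, was at 0.34 with its copy. The rescalings moved the folds of abundant genes by -0.05, -0.06 and -0.04, and those of low genes by less. Of 469 values of single genes, 447 stayed within their counting interval. A change of floor cannot move the fold of a single gene, so the values under a floor of 5 CPM or none were bound to stay. They are among the 447 and say nothing about how stable the folds are. Depth limits genes near 1 CPM, which rest on about 52.04 and 56.13 read equivalents in the knockout and wild-type libraries, and the lack of replicates limits all of them.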
